A study of Mus musculus with 6 samples.

Results

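Bone morphogenetic protein (BMP) signalling was examined through 10 genes, taken by symbol from a table of 34714 gene rows: the ligands Bmp2, Bmp4, Bmp6 and Bmp7, the type II receptor Bmpr2, the secreted antagonists Grem1, Sostdc1 and Chrdl1, and the target genes Id1 and Id3. All 10 were found, and all 10 passed the filter on low counts that left 18927 genes for testing. Bulk RNA was sequenced from kidneys of male mice whose left ureter had been tied off (unilateral ureteral obstruction, UUO) at 8 weeks of age, collected 10 days after the operation. The 3 knockout libraries (KO) carried the allele C57BL/6JGpt- Mir-92bem22Cd549/Gpt, a knockout of the miR-92b gene in the whole animal and not in 1 cell type. The 3 wild-type libraries (WT) came from C57BL/6J mice that had the same operation, so the deletion and the substrain cannot be told apart. The treatment protocol calls ligated kidneys controls without fibrosis, while the treatment labels and column names give UUO for all 6, and unobstructed kidneys were not analysed here. Nothing in the labels states that replicates were separate animals, so p-values measure only the spread between these libraries, which may be technical.

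BMPs are secreted dimers that bring together type I and type II receptor kinases on the cell surface, and the activated type I receptor phosphorylates SMAD1, SMAD5 and SMAD9, which enter the nucleus with SMAD4. Secreted antagonists bind the ligands and keep them from the receptors. Among the genes that answer the signal most directly are those of the Id family, whose proteins bind E proteins and keep them off DNA. In the kidney, Bmp7 is needed for nephron formation and is known for opposing TGF-β driven fibrosis in the injured organ, whereas Grem1 and Sostdc1 are known there as inhibitors of BMP signalling.

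The deleted microRNA gene lies at chr3:89227116-89227198 (GRCm38.p6). No microRNA row was among the counts, and the knockout therefore has no check in these data. Its product miR-92b-3p is shown because its seed, bases 2 to 8 in capitals, sets which messages it can pair with; miR-25-3p, miR-32-5p, miR-92a-3p, miR-363-3p and miR-367-3p carry the same seed in RefSeq. Under it stand the strongest matches found in the longest annotated 3' UTR of each of the 10 genes (GENCODE M21), with the letters that pair with the seed, and an A opposite base 1 where there is one, in capitals.
miR-92b-3p: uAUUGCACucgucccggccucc
Bmpr2 8mer: ttatttgaatGTGCAATAgtctatagac
Bmpr2 7mer-A1: gtacagacttTGCAATAgagtcagcac
Bmp7 7mer-A1: ggtttgacttTGCAATAaaaggagaca
The 8mer of Bmpr2 lies at chr1:59870980-59870987 on the plus strand, at position 495 of a 3' UTR of 8529 nt, and its 7mer-A1 site at chr1:59877685-59877691, at position 7200. Bmpr2 also held 2 sites of 6 bases. The match in Bmp7 lies at chr2:172868043-172868049 on the minus strand, at position 2088 of 2125 nt, and shares letters with the polyadenylation hexamer AATAAA. Chrdl1 and Grem1 held 2 sites of 6 bases each. The 3' UTRs of Bmp2, Bmp4, Bmp6, Sostdc1, Id1 and Id3 held 0 sites of these kinds. Of 15395 tested genes with a 3' UTR, 2.7% held an 8mer and 13.9% held a site of at least 7 bases. Of the 121 with a 3' UTR of at least 8000 nt, the class of Bmpr2, 14.9% held an 8mer. A match is a description of the sequence and does not show that the site is used.

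None of the 10 genes passed the adjusted threshold of 0.05 over all genes in edgeR's quasi-likelihood test, and neither did any other gene (0 of 18927, 0%). At an unadjusted p under 0.05 there were 2 of the 10, Id1 and Bmp4, against 7.9% of all genes tested. Both were lower in the knockout, as were 3.52% of all genes, and 0 of the 10 were higher, against 4.38% of all genes. DESeq2 and limma-voom, which called 0.255% and 0.0159% of their genes, also called 0 of the 10. Knockout and wild-type libraries were fully apart for 2 of the 10, Bmp4 and Bmpr2, against 16.1% of all genes tested, so neither count stands far from the background. The log2 fold change (knockout over wild type) was above 0 for 3 and below 0 for 7, with a median of -0.07, while 47.7% of all genes lay above 0 with a median of -0.02.

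**Figure D1:**
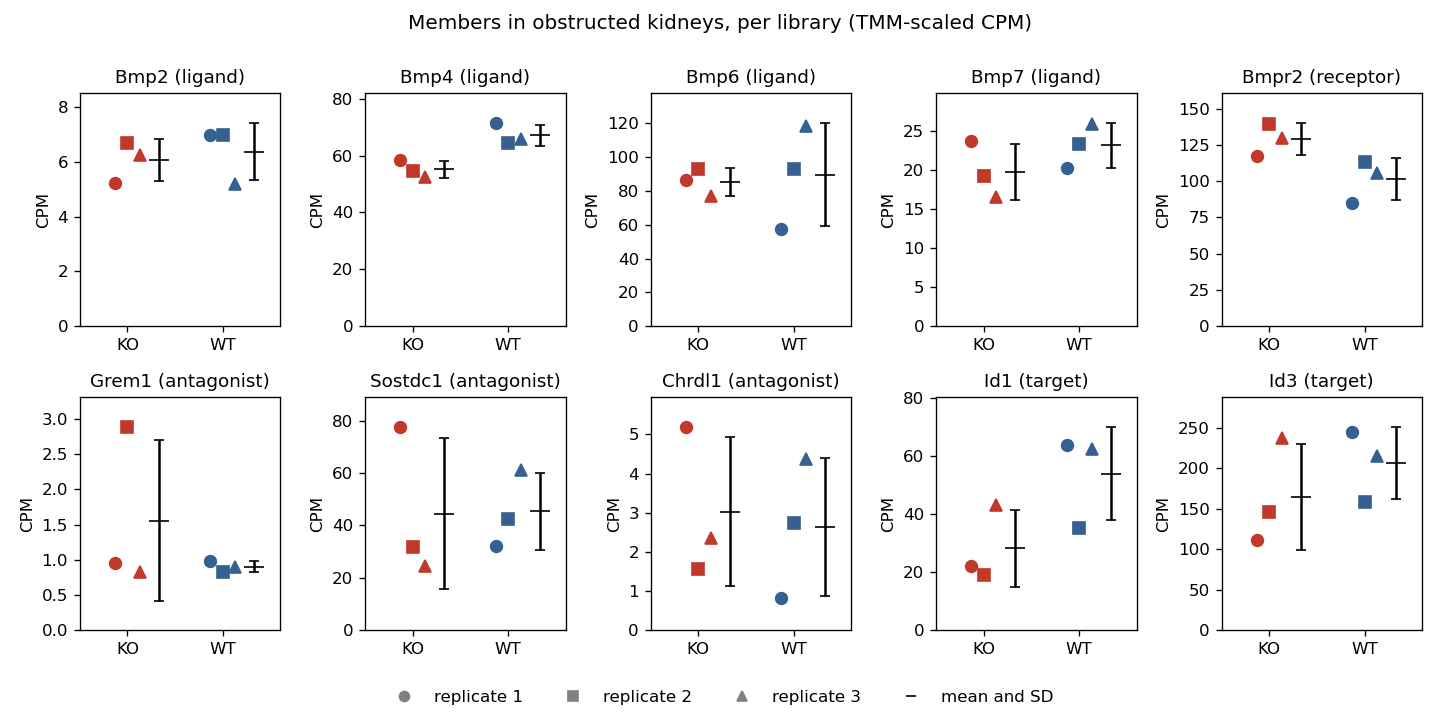
Level of each of the 10 genes in CPM (scaled by TMM, axes from 0) in the 3 knockout (KO, red) and 3 wild-type (WT, blue) libraries, with marker shapes for replicate numbers and black bars for mean and SD. The groups are apart for Bmp4 and Bmpr2 only, and single libraries stand high for Grem1 (KO replicate 2) and for Sostdc1 (KO replicate 1).

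Bmp4, a ligand made by stromal and vascular cells, was the ligand with the tightest groups. It measured 58.5, 54.7 and 52.5 CPM (read counts of the gene scaled to a common library size) in the knockout, against 71.4, 64.5 and 65.7 CPM in the wild type. Every knockout library lay below every wild-type library, by a gap wider than the SD of either group. The means were 55.2 ± 3.04 CPM in the knockout and 67.2 ± 3.68 CPM in the wild type (SD, n = 3 each), a ratio of 0.821. The log2 fold change was -0.28 ± 0.12 (SE), which did not pass over all genes (edgeR unadjusted p = 0.0416, adjusted p = 0.627). An exact two-sided permutation test on log2 CPM reached p = 0.1, its lower limit with 3 libraries a group. Bmp4 stayed below 0 in each of 17 alternative analyses, between -0.33 and -0.21, and its groups stayed apart under each of 4 scalings. Its unadjusted p did not stay under 0.05. It ran from 0.0251 with limma-voom to 0.138 in edgeR without replicate 3 of either group.

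Bmp7 is made by tubule cells. It measured 23.7, 19.2 and 16.5 CPM in the knockout and 20.2, 23.3 and 25.9 CPM in the wild type. KO replicate 1 lay above 2 of the 3 wild-type libraries, and the log2 fold change was -0.23 ± 0.18 (edgeR adjusted p = 0.704). It was -0.37 without KO replicate 1, -0.11 without KO replicate 3, -0.13 without WT replicate 3 and -0.02 without replicate 3 of either group. Fewer cells of a type and less RNA per cell cannot be told apart in these whole-kidney libraries.

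Bmp6, a ligand of endothelial and other cells best known for its part in iron balance through the liver, had 86.2, 93.1 and 76.8 CPM in the knockout, against 57.5, 93.0 and 118 CPM in the wild type. The wild-type libraries spread 2.06-fold, from WT replicate 1 to WT replicate 3, and enclosed all knockout libraries. Its log2 fold change of -0.07 ± 0.25 turned to 0.19 without WT replicate 3 and to -0.31 without WT replicate 1. Bmp2, a ligand known for bone and heart formation, had 5.22, 6.70 and 6.28 CPM in the knockout and 6.99, 6.98 and 5.19 CPM in the wild type, also with overlap (log2 fold change -0.07 ± 0.23; edgeR adjusted p = 0.924). All 4 ligands thus had a fold change below 0, with a median of -0.15, and only Bmp4 had groups that did not overlap.

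Bmpr2, the type II receptor that binds the ligands and activates the type I receptor, was the one gene of the 10 whose groups lay apart in the upward direction. It measured 117, 139 and 129.8 CPM in the knockout, against 84.9, 113 and 106 CPM in the wild type. The lowest knockout library stood just above the highest wild-type library, and WT replicate 1 was the lowest of all. The means were 129 ± 11.1 CPM in the knockout and 101 ± 14.6 CPM in the wild type (SD, n = 3 each), a ratio of 1.27. The log2 fold change was 0.35 ± 0.15 (edgeR unadjusted p = 0.0547, adjusted p = 0.627), and the exact two-sided permutation test gave p = 0.1. With library size alone as the scaling, the groups overlapped, at a log2 fold change of 0.32.

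Transcript length was set beside this value. The longest transcript of Bmpr2 has 12899 nt, and the 385 tested genes with a transcript of at least 10000 nt had a median log2 fold change of 0.16, with 273 above 0. Their libraries lay apart with the knockout higher for 16.4%, against 8.95% of all genes tested. Of the 121 genes with a 3' UTR of at least 8000 nt, 78 were above 0, with a median of 0.12. Among these 121, 9.92% lay apart with the knockout higher, near the share of all genes. Once the trend over transcript length was taken out, Bmpr2 was at 0.13 ± 0.14 (edgeR adjusted p = 0.813). Without WT replicate 1 it was at 0.23. The trend was fitted in each library without regard to group, so a length-linked difference between the groups is taken out with it. The parts of transcript length and of the miR-92b-3p sites of Bmpr2 in the difference were not tested.

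Among the antagonists, no group difference held against the spread of the libraries. Grem1, gremlin, which binds Bmp2, Bmp4 and Bmp7, rested on few reads. The knockout libraries held 42, 134 and 42 counts and the wild-type libraries 42, 41 and 42. The 134 counts of KO replicate 2 (exact 95% Poisson interval 112 to 159, for counting error only) lie outside the interval of 30.3 to 56.8 for 42 counts, and the other 5 libraries fall within each other's. In CPM these were 0.958, 2.88 and 0.834 in the knockout and 0.988, 0.829 and 0.893 in the wild type. The log2 fold change of 0.78 ± 0.51 (edgeR adjusted p = 0.660) rests on that 1 library, and without it the value was -0.01. The 8 fibroblast markers summed to 1673, 2943 and 4699 CPM in the knockout, against 2452, 1696 and 1257 CPM in the wild type, with most of each sum from Col1a1 and Col1a2. Pdgfra and Col14a1 of that list were highest in KO replicate 2, as Grem1 was, at 193 and 183 CPM. All the others, Pdgfrb, Dcn, Lum, Dpt, Col1a1 and Col1a2, were highest in KO replicate 3, with Pdgfrb at 307 and Dcn at 343 CPM. The part of fibroblasts in the level of Grem1 was not tested.

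Sostdc1, also called USAG-1, an antagonist made by tubule cells, had 77.4, 31.8 and 24.4 CPM in the knockout and 32.2, 42.6 and 61.2 CPM in the wild type. The knockout libraries spread 3.17-fold and the wild-type libraries 1.90-fold, so that KO replicate 1 was the highest of the 6 and KO replicate 3 the lowest. The log2 fold change was -0.03 ± 0.44 (edgeR adjusted p = 0.989), with -0.69 without KO replicate 1 and 0.27 without KO replicate 3. The 4 markers of the distal convoluted tubule summed to 579.955, 209 and 181 CPM in the knockout and 279, 340.4 and 345 CPM in the wild type, which is the same order of the 6 libraries as for Sostdc1. Slc12a3, the salt transporter of that segment, made up most of the sum. Its level in WT replicate 2 (290 CPM) was above that in WT replicate 3 (280 CPM), unlike that of Sostdc1. Calb1 ran in the order of Sostdc1, while Trpm6 was highest in KO replicate 3 (42.5 CPM), the lowest library for Sostdc1. Pvalb stood at 0 to 0.0456 CPM in the knockout and at 0.234 to 0.587 CPM in the wild type. Of 170 pairs of the 10 genes with marker lists, only Sostdc1 and this list had the same order in all 6 libraries. The pair was picked out after the values were seen, and its part in the values of Sostdc1 was not tested. The collecting duct markers ran in the order of Sostdc1 within each group but not over all 6 libraries. Markers of distal convoluted tubule and of collecting duct also ran in the order of Bmp7 within each group. Of the 170 pairs, 5 had the same order within each group.

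Chrdl1, a chordin-like antagonist of BMP4, measured 5.18, 1.57 and 2.34 CPM in the knockout and 0.823, 2.73 and 4.36 CPM in the wild type. It had the widest spread within the wild type, 5.30-fold from WT replicate 1, with 35 counts, to WT replicate 3, with 205. Its log2 fold change of 0.20 ± 0.63 (edgeR adjusted p = 0.927) was -0.43 without KO replicate 1 and 0.76 without WT replicate 3. KO replicate 1 also stood apart in the 5 adipocyte markers, which summed to 172.8, 0.923 and 4.03 CPM in the knockout and 2.14, 41.4 and 1.51 CPM in the wild type. The order of the libraries was that of Chrdl1 within the knockout but not within the wild type. Intercalated cell markers also had the order of Chrdl1 within the knockout, and those of distal convoluted tubule, collecting duct and macrophages had it within the wild type. Adipocyte markers were set beside Chrdl1 after the values were seen, and the part of adipocytes in the level of Chrdl1 was not tested.

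**Figure D2:**
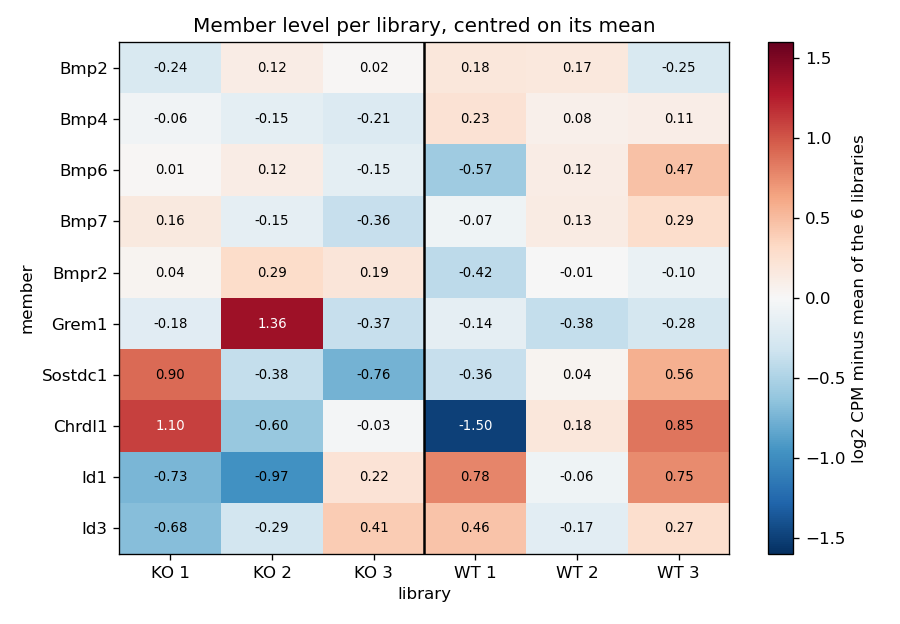
Log2 CPM of each gene in each library minus its mean over the 6 libraries, with knockout (KO) libraries left of the line and wild-type (WT) libraries right of it. Grem1 stands out in KO replicate 2 (1.36 above its mean) and Chrdl1 is lowest in WT replicate 1, while Bmp4 stays between -0.21 and 0.23.

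Id1 had the largest fold change of the 10 by size and the smallest p. It encodes an inhibitor of E proteins and is a direct BMP target, with high levels in endothelium. Knockout libraries measured 22.3, 18.9 and 43.2 CPM, against 63.6, 35.4 and 62.4 CPM in the wild type. KO replicates 1 and 2 lay below every wild-type library, whereas KO replicate 3 lay above WT replicate 2, so the groups overlapped. The means were 28.1 ± 13.2 CPM in the knockout and 53.8 ± 16.0 CPM in the wild type (SD, n = 3 each), a ratio of 0.523. The log2 fold change of -0.93 ± 0.35 did not pass over all genes (edgeR unadjusted p = 0.0298, adjusted p = 0.627; rank 860 of 18927 by p), and the exact two-sided permutation test gave p = 0.2. It stayed below 0 in each of the 17 alternatives, at -1.38 without KO replicate 3 and -0.72 without KO replicate 2, and its adjusted p ranged from 0.299 to 0.971.

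Id3, which shares the helix-loop-helix fold and the E protein partners of Id1, had a smaller fold change. It measured 111, 146 and 237 CPM in the knockout and 245, 158 and 215 CPM in the wild type. KO replicates 1 and 2 were again the 2 lowest libraries, and KO replicate 3 was the second highest. The means were 165 ± 65.1 CPM in the knockout and 206 ± 44.1 CPM in the wild type (SD, n = 3 each), with a log2 fold change of -0.32 ± 0.29 (edgeR adjusted p = 0.732). Without KO replicate 3 it was -0.68, without KO replicate 1 it was -0.10, without WT replicate 1 it was -0.18, and with the length trend taken out it was -0.14. The ratio of Id1 to Id3 within a library, which does not depend on scaling, was 0.201, 0.1297 and 0.182 in the knockout and 0.260, 0.224 and 0.291 in the wild type. Every knockout ratio lay below every wild-type ratio, a description with no test. The other ratios taken, of Bmp4 to Bmp6 and of Sostdc1 to Bmp7, overlapped between the groups. For single genes, 16.1% of those tested had groups that did not overlap.

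Id2 and Id4 did not separate the groups. Id2 had 254, 266 and 186 CPM in the knockout and 165, 273 and 426 CPM in the wild type, a log2 fold change of -0.29 ± 0.33 that turned to 0.10 without WT replicate 3. Id4 was at -0.22 ± 0.27 and at 0.01 without KO replicate 3. Among E proteins, which the Id proteins bind, Tcf12 had 101, 109.7 and 109 CPM in the knockout and 70.1, 93.4 and 83.0 CPM in the wild type (log2 fold change 0.37 ± 0.14; edgeR unadjusted p = 0.0323, adjusted p = 0.627). Its groups did not overlap, and once the length trend was taken out it was at 0.24. Tcf4 and Tcf3 stood at 0.10 ± 0.21 and 0.0072 ± 0.19, and their signs turned under some alternatives.

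Markers of 1 cell type and a group of stimulus-driven genes were measured beside Id1. The 8 endothelial markers, all of them expressed in every library, summed to 375, 606 and 1017 CPM in the knockout and 769.8, 414 and 412 CPM in the wild type, and 7 of the 8 had a fold change above 0. KO replicate 3, the highest knockout library for Id1 and Id3, was also the highest for these markers, but WT replicate 3, with 62.4 CPM of Id1, had next to the lowest sum. The 17 immediate early genes, which cells switch on within minutes of a stimulus, all had a fold change below 0 with a median of -1.03. Of these, 12 had an unadjusted p under 0.05 in edgeR, where 3.52% of all genes had one with the knockout lower. The groups did not overlap for 10, against 7.2% of all genes with the knockout lower. The list was chosen with earlier results of these data known, so these counts are a description only. Fos, the AP-1 subunit, measured 17.9, 16.1 and 13.3 CPM in the knockout and 63.5, 84.4 and 377 CPM in the wild type, and Egr1, a zinc finger factor, had 124, 88.1 and 59.7 CPM in the knockout and 178, 234 and 635 CPM in the wild type. The phosphatase gene Dusp1 and the mRNA decay gene Zfp36 stood at -1.52 ± 0.37 and -1.46 ± 0.37. None of the 17 passed with edgeR, whose adjusted p was 0.627 for each of Fos, Egr1, Dusp1 and Zfp36, while DESeq2 called these 4. Without WT replicate 3, the highest library, the median was -0.44, with Fos at -2.23, Egr1 at -1.18, Dusp1 at -0.90 and Zfp36 at -0.86. The part of endothelial cells or of immediate early genes in the level of Id1 was not tested.

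**Figure D3:**
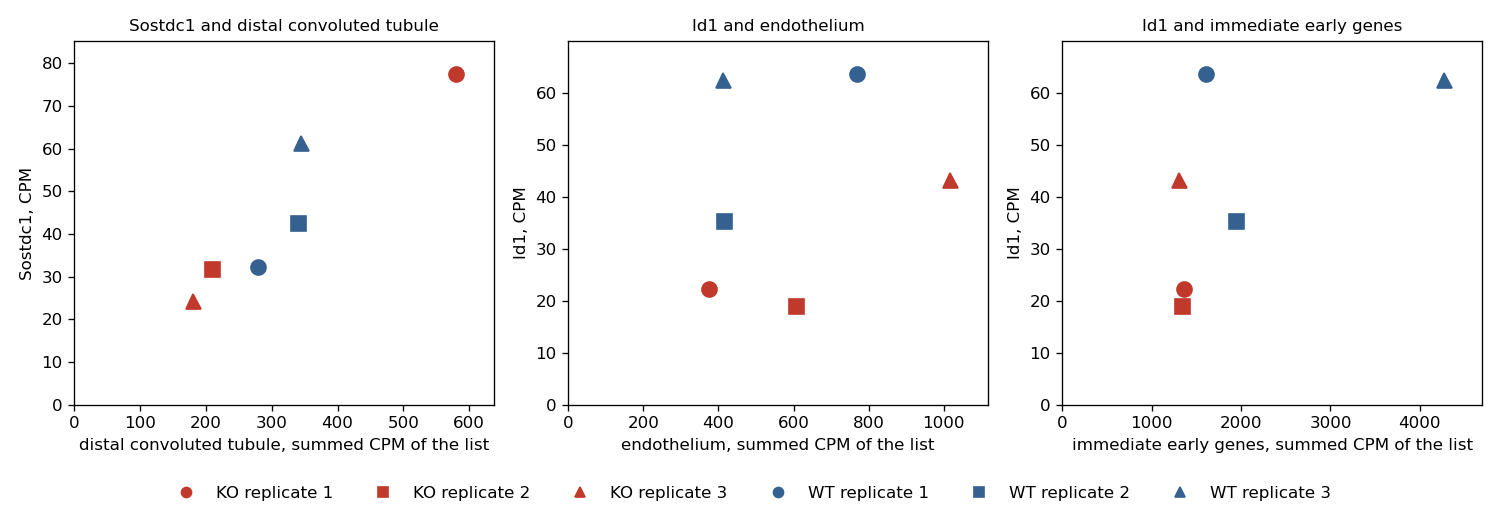
CPM of Sostdc1 against the summed CPM of 4 distal convoluted tubule markers (left), and of Id1 against the summed CPM of 8 endothelial markers (middle) and 17 immediate early genes (right), 1 point per library with knockout (KO) in red and wild type (WT) in blue. Sostdc1 runs in the same order as its list, Id1 does not run in the order of either list, and the immediate early sums are 1307 to 1362 CPM in the knockout and 1607 to 4269 CPM in the wild type.

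The window from 250 bases before to 50 bases after the RefSeq gene start was on hand for 5 of the 10 genes: Bmp4, Bmp6, Bmpr2, Grem1 and Id3. It was searched on both strands for GGCGCC, a GC-rich element bound by BMP SMADs, and for CAGAC, the short SMAD box, which do not overlap each other in these windows. The windows of Id3, a target gene, and Bmpr2, whose groups lay apart, are printed with matches (CAGAC also as GTCTG on the other strand) in capitals (GRCm38.p6; Id3 at chr4:136143572-136143871 and Bmpr2 at chr1:59764029-59764328, both on the plus strand).
Id3: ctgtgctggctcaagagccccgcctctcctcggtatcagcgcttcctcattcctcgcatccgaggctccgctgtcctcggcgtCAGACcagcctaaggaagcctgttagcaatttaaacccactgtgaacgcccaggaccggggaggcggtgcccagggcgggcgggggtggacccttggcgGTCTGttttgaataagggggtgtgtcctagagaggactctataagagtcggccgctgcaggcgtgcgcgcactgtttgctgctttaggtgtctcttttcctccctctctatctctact
Bmpr2: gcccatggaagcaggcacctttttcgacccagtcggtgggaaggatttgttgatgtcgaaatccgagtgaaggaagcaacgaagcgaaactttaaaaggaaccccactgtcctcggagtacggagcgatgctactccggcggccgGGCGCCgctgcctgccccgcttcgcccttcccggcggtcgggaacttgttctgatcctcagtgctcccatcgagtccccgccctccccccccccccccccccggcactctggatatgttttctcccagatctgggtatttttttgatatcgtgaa
Id3 held 2 copies of CAGAC, which begin at positions -167 and -68 relative to the gene start, and 0 of GGCGCC. Bmpr2 held 1 GGCGCC, which begins at position -105, and 0 of CAGAC. Grem1 held 1 GGCGCC and 2 CAGAC, Bmp6 held 1 CAGAC, and Bmp4 held neither. Over all 32851 promoter windows, 11.9% held GGCGCC, 49.6% held CAGAC and 5.24% held both.

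The other genes of the pathway were taken from lists by role, and none of them passed the adjusted threshold with edgeR in either direction. Of 11 receptors and coreceptors 10 were measured, with 7 above 0 and a median log2 fold change of 0.19, against -0.02 for all genes. The coreceptor Rgma (0.47 ± 0.26), the type I receptor Bmpr1a (0.29 ± 0.17) and the betaglycan gene Tgfbr3 (0.29 ± 0.18) had the smallest p, and without replicate 3 of either group the median was 0.02. Rgma was at 0.26 without WT replicate 3, while Bmpr1a and Tgfbr3 were each at 0.16 without WT replicate 1 and again at 0.16 once the length trend was taken out. Bmpr1a, the partner of Bmpr2, measured 124, 149.9 and 132 CPM in the knockout and 89.6, 125 and 118 CPM in the wild type, with overlap.

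Of 8 SMADs and their inhibitors, 5 were above 0, with a median of 0.16, and 4 had groups that did not overlap, Smad5, Smurf1, Smad4 and, seen after the values were known, the related ligase Smurf2. All 4 were higher in the knockout, against 8.95% of all genes tested. The gap was narrow for Smurf2 (74.4 CPM in KO replicate 1, 74.2 CPM in WT replicate 3). It was also narrow for Smurf1 (74.6 CPM in KO replicate 1, 73.0 CPM in WT replicate 2), and wider for Smad5 and Smad4. Whether these 4 stay apart under other scalings was not examined. Smad5, a BMP signal transducer, measured 129, 137 and 152 CPM in the knockout, against 105, 123.2 and 105 CPM in the wild type, at 0.33 ± 0.14 (edgeR unadjusted p = 0.0452, adjusted p = 0.627). Smurf1, a ubiquitin ligase that marks BMP SMADs for decay, was at 0.29 ± 0.14, and the common partner Smad4 at 0.29 ± 0.15. Once the length trend was taken out, Smad5 was at 0.19, Smurf1 at 0.18 and the median of the 8 at 0.081. Smad4 was at 0.18 without WT replicate 1.

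Of 17 further antagonists and modulators 15 were measured, with 11 above 0 and a median of 0.16. Without replicate 3 of either group the median was 0.036. Fstl1, a secreted follistatin-like protein of stromal cells, measured 188, 314 and 428 CPM in the knockout, against 217, 173 and 144 CPM in the wild type, at 0.80 ± 0.30 (edgeR unadjusted p = 0.0301, adjusted p = 0.627). KO replicate 1 lay below WT replicate 1, and the value was 0.37 without replicate 3 of either group and 0.49 without KO replicate 3. The summed fibroblast markers, given with Grem1, ran in the same order as Fstl1 within the knockout and within the wild type. So did the summed markers of endothelium, of smooth muscle and myofibroblasts, of podocytes and of neutrophils, so the order is not particular to fibroblasts. These likenesses were seen after the values were known, and the part of any of these cell types in Fstl1 was not tested. Bmper, an endothelial modulator, had 7.79 CPM in KO replicate 3 and 0.851 to 1.76 CPM in the other 5 libraries (1.46 ± 0.72). Its value was 0.13 without KO replicate 3 and 0.12 with limma-voom. Twsg1, which acts with chordin, was at 0.30 ± 0.15.

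Of 11 further ligands, 7 passed the filter, with 5 above 0 and a median of 0.17, and the 3 with a mean of at least 1 CPM and the smallest p were Bmp15 (-0.70 ± 0.34), Gdf10 (0.44 ± 0.46) and Bmp3 (0.17 ± 0.36). Without 1 library the values were -0.41 for Bmp15 (WT replicate 3), -0.083 for Gdf10 (KO replicate 2) and -0.081 for Bmp3 (WT replicate 1). Of 8 further target genes 7 were measured, with 6 below 0 and a median of -0.22; Runx2, a bone transcription factor, was the exception at 0.26 ± 0.27, and at 0.048 without WT replicate 3 and 0.094 without KO replicate 3. Without WT replicate 1 the median of the target genes was 0.10.

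**Figure D4:**
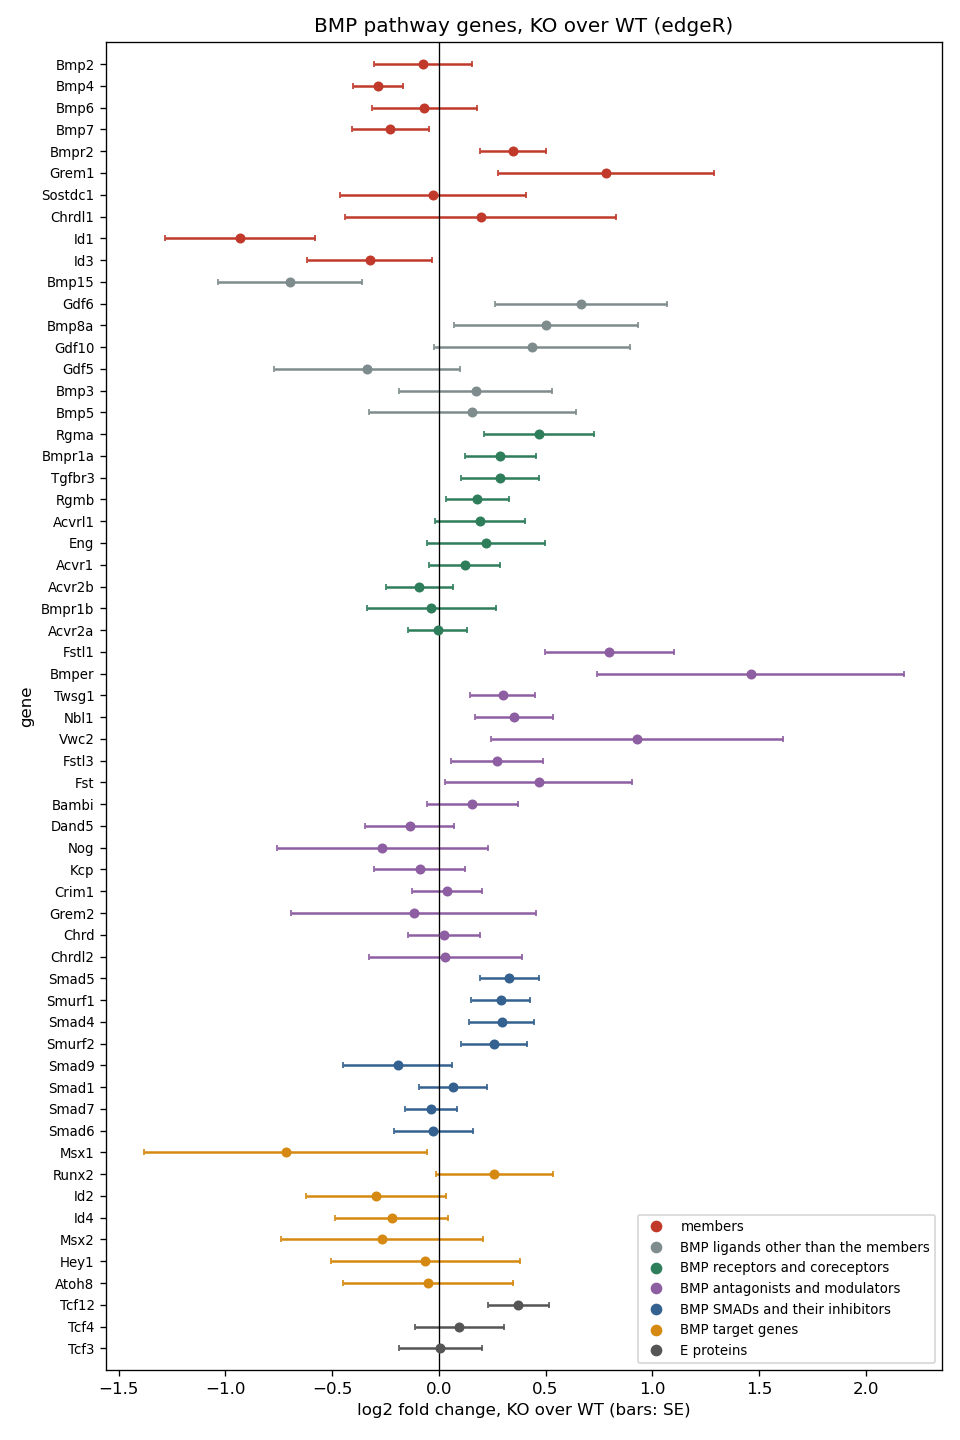
Log2 fold change (knockout, KO, over wild type, WT) with its SE for the 10 genes (members, red) and the measured genes of 6 pathway lists. Most receptors and modulators lie at or right of 0 and most target genes left of it, with bars that often cross 0; no gene shown passed the adjusted threshold.

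To set the 10 genes side by side, levels were divided by the length of the longest transcript. Id3 had 129 ± 51.0 CPM per kb in the knockout and 161 ± 34.5 CPM per kb in the wild type (SD, n = 3 each), the highest of the 10 in both groups. In the knockout, Bmp4 (26.7 ± 1.47), Sostdc1 (25.0 ± 16.1), Id1 (24.3 ± 11.4) and Bmp6 (23.8 ± 2.28 CPM per kb) did not differ beyond their spread. In the wild type, Id1 (46.4 ± 13.8 CPM per kb) stood next after Id3 with a spread that reached Bmp4, and Bmp4 (32.6 ± 1.78), Sostdc1 (25.5 ± 8.25) and Bmp6 (24.9 ± 8.49) followed within each other's spread. Below them came Bmpr2, with 9.98 ± 0.86 in the knockout and 7.85 ± 1.14 CPM per kb in the wild type, and Bmp7, with 5.39 ± 0.99 in the knockout and 6.31 ± 0.78 CPM per kb in the wild type. Bmp2, at 1.71 ± 0.21 in the knockout and 1.80 ± 0.29 CPM per kb in the wild type, stood above Chrdl1 and Grem1, which were under 1 CPM per kb in both groups. The order in the middle depends on which transcript is used: with the median transcript length, Bmp6 was at 127 in the knockout and 133 CPM per kb in the wild type.

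For each of the 10, the 2 genes of most similar pattern were sought among the other tested genes of at least 5 CPM, by the root mean square difference of log2 CPM centred over the 6 libraries. Bmp4 was nearest to Ncapd3 (0.023 on the log2 scale) and Cdip1 (0.029), and Bmpr2 to Irak4 (0.027) and Cep170b (0.031). Sostdc1 was nearest to Scnn1g (0.168), a subunit of the sodium channel of the distal nephron and collecting duct, and to Cxcl17 (0.176). Id3 was nearest to Chek1 (0.094), a cell cycle checkpoint kinase, and Atad2 (0.117), and Id1 to LOC101056296 (0.193) and LOC101056300 (0.200). Bmp2 was nearest to Nlrc3 and Tspan15, Bmp6 to Rnf13 and Atp6v1c1, and Bmp7 to Sh3tc1 and Notum, all within 0.0571. Grem1 (0.233 from Runx3 and 0.273 from Lama2) and Chrdl1 (0.396 from Cfi and 0.397 from Hpcal4) lay furthest from their nearest genes. Such differences grow with the spread of the gene itself. The SD of log2 CPM over the 6 libraries was 0.674 for Grem1, 0.955 for Chrdl1, 0.735 for Id1 and 0.171 for Bmp4. With 6 libraries and 12430 candidates, such likeness is a description only.

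**Figure D5:**
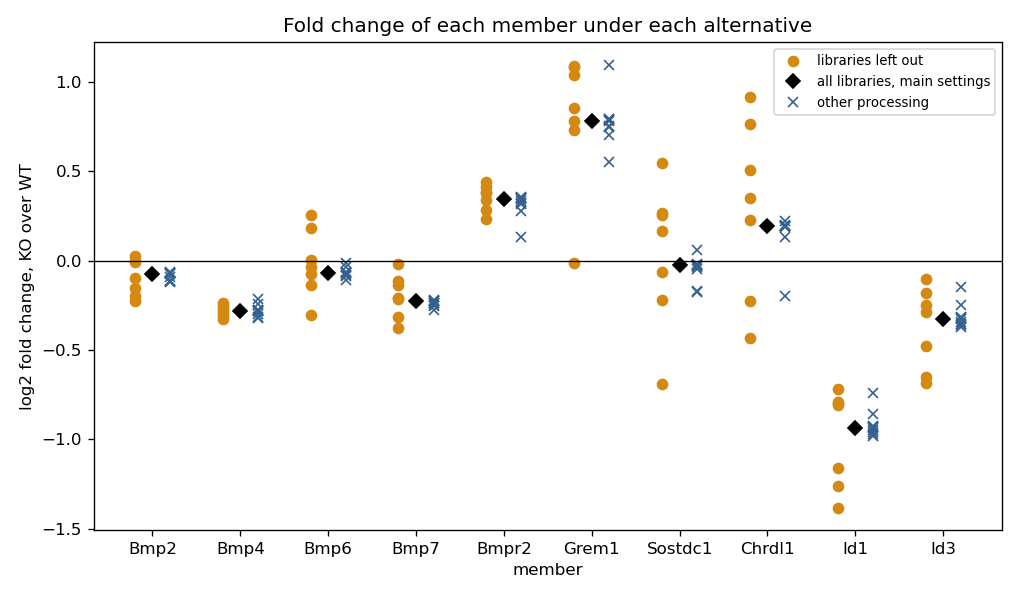
Log2 fold change (knockout, KO, over wild type, WT) of each of the 10 genes with all libraries and the main settings (diamonds), with libraries left out (circles) and under other processing (crosses). Bmp4, Bmp7, Bmpr2, Id1 and Id3 keep their sign throughout, and Bmp2, Bmp6, Grem1, Sostdc1 and Chrdl1 do not.

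The library totals ran from 44476507 to 50769801 counts in the knockout and from 38738204 to 51932509 in the wild type. Kidney markers were high in all libraries, with proximal tubule sums of 2591 to 8339 CPM in the knockout and 5649 to 17047 CPM in the wild type, and WT replicate 3 the highest. Skeletal muscle markers summed to under 1 CPM in the knockout and to 4.51 to 4.92 CPM in the wild type.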

How the data were processed

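The values the authors deposited are raw read counts (whole numbers, 1 row per gene symbol and 1 column per library, per the file headers). The submitters' processing notes name GRCm38 and mm10, which are 1 build. Aligner, counter and strand setting: not given in the sources used here, so overlapping genes may share counts. Knockout columns were matched to samples by the parts of the description name, which stand in another order there.

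Genes were filtered with filterByExpr (18927 of 34714 kept, with 99.96% of counts), scaled by TMM and tested in edgeR 4.0.16 by quasi-likelihood (robust fitting; R 4.3.3), with Benjamini-Hochberg adjustment over all genes and a threshold of 0.05. SE is the log2 fold change over the root of F. Log2 CPM used a prior count of 2. Alternatives used DESeq2 1.42.0, limma 3.58.1, other scalings and filters, the replicate number as a block, a transcript length offset (lengths for 89.7% of tested genes), and libraries left out. The code was tested on simulated counts with known changes. There the edgeR test called 1.82% of the 1.5-fold, 28.8% of the 2-fold and 72.2% of the 4-fold changes, with 6 false calls. Libraries differed by a chi-square of at least 31.1 per degree of freedom, so none was a copy of another.

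The 10 genes, the lists and the tests were chosen with earlier results of these data known. Named genes were all 10; up to 3 per pathway list by smallest p with a mean of at least 1 CPM, plus Fos and Egr1; and the 2 nearest patterns per gene, leaving out numbered Gm symbols and Rik symbols (LOC symbols, which are uncharacterised loci, were kept). Smurf2, Pvalb, Slc12a3, Calb1, Trpm6, Pdgfra, Pdgfrb, Col14a1, Dcn, Lum, Dpt, Col1a1 and Col1a2 were named after their values were seen. Sequences came from RefSeq (GRCm38.p6) and GENCODE M21 (GRCm38).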

Additional observations from a re-analysis of the deposited data

How the results depend on the processing

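Over 17 alternatives, 156 of the 169 values of the 10 genes kept direction and side of the threshold, 0 passed it and 13 turned sign; Grem1 has no value under the filter of 1 CPM in 3 libraries. Leaving out 1 library took Bmp2 from -0.20 (without WT replicate 3) to 0.024 (without KO replicate 1), Bmp6 from -0.31 (without WT replicate 1) to 0.19 (without WT replicate 3), Grem1 from -0.015 (without KO replicate 2) to 1.09 (without KO replicate 3), Sostdc1 from -0.69 (without KO replicate 1) to 0.27 (without KO replicate 3), Chrdl1 from -0.43 (without KO replicate 1) to 0.76 (without WT replicate 3). Without replicate 3 of either group, Bmp6 was at 0.26 and Sostdc1 at 0.55. Sostdc1 was at 0.061 once the length trend was taken out, and Chrdl1 at -0.20 with limma-voom. Of the 374 values of named pathway genes, 349 held, 21 turned sign and 4 passed, those of Fos, Egr1, Dusp1 and Zfp36 with DESeq2. Leaving out 1 library took Gdf10 from -0.083 (without KO replicate 2) to 0.82 (without KO replicate 1), Bmp3 from -0.081 (without WT replicate 1) to 0.69 (without WT replicate 2), Id2 from -0.57 (without WT replicate 1) to 0.10 (without WT replicate 3), Id4 from -0.50 (without KO replicate 1) to 0.0077 (without KO replicate 3), Tcf4 from -0.078 (without KO replicate 3) to 0.29 (without WT replicate 1) and Tcf3 from -0.14 (without KO replicate 3) to 0.19 (without WT replicate 1). Bmp3 was at -0.14 with limma-voom, and Tcf4 at -0.089 once the length trend was taken out. Without replicate 3 of either group, Bmper was at -0.088, Runx2 at -0.12, Id2 at 0.25, Id4 at 0.056, Tcf4 at -0.20 and Tcf3 at -0.26. Tcf3 was also at -0.0385 with upper-quartile factors, -0.0407 with library size alone, -0.0094 with limma-voom and -0.010 with the filter of 1 CPM. Further sign changes from leaving out 1 library were Bmp6 at 0.0028 (KO replicate 3), Sostdc1 at 0.16 (KO replicate 2) and 0.25 (WT replicate 3), Chrdl1 at -0.23 (WT replicate 1), Tcf4 at -0.024 (WT replicate 3), and Tcf3 at -0.023 (WT replicate 2) and -0.12 (WT replicate 3). The causes were not tested.

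Over all genes edgeR called 0 higher and 0 lower, DESeq2 29 higher and 24 lower, of which 4 were pathway genes, limma-voom 1 higher and 2 lower, edgeR with no filter 1 higher and 1 lower, and edgeR without replicate 3 of either group 1 higher. Leaving out 1 library gave 0 to 1 higher and 0 lower. With the replicate number as a block, 1 gene was called higher and 0 lower, and no call on the 10 genes changed. Same-numbered libraries correlated at -0.288 to 0.179 across genes in their deviations from the group means, and differently numbered ones at -0.196 to 0.370. Same-numbered libraries were thus not more alike as a set. Deviations from a mean of 3 libraries depend on each other, so these values cannot tell whether the numbers pair the libraries. The median of the other ligands ran from -0.14 (limma-voom) to 0.69 (without WT replicate 2) and that of the E proteins from -0.20 (without replicate 3 of either group) to 0.27 (without WT replicate 1). Of the 10 genes, Grem1 and Chrdl1 rest on the fewest reads.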
